A study of Mus musculus with 12 samples.

Results

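The genes described here are 10 listed genes of the NRF2 antioxidant response: Nfe2l2, Hmox1, Nqo1, Gclc, Gclm, Txnrd1, Srxn1, Cat, Sod1 and Sod2. They were chosen by name, with earlier results of these data known. Every probe that the platform's table gives to 1 of these symbols was used. Of the 10 listed genes 9 had a probe, with 10 probes in all because Sod2 had 2, out of 19084 named genes on the array. Sod1 had no probe in the table used and was dropped.

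Liver RNA of male C57BL/6 mice was measured on 12 single-colour arrays, 3 in each of 4 groups. PTFC livers came from mice fed a high-fat diet for 24 weeks that also received PTFC, the pure total flavonoids of citrus under study, by stomach tube at a daily 50 mg per kg during 18 of those weeks. HFD24 livers came from 24 weeks of the same diet and HFD16 livers from 16 weeks of it, both with saline in place of PTFC. ND livers came from 24 weeks of normal diet with saline. The high-fat diet held 36.1% fat, 21.6% protein and 42.3% carbohydrate, with 2% cholesterol added along with lard, bile salt and egg yolk powder, and the normal diet held 12.3% fat, 21.5% protein and 66.2% carbohydrate. PTFC and HFD24 mice were 31 to 33 weeks old at collection, HFD16 mice 23 to 25 weeks and ND mice 30 to 33 weeks, so age differed wherever HFD16 was compared. All livers were taken after a night without food, and no mouse carried an engineered allele in the labels. Arrays are numbered 1 to 3 within a group, and each title has its own code, but no label says that a code stands for 1 mouse. ND replicate 1 has an age of 31 to 33 weeks, and ND replicates 2 and 3 have 30 to 32 weeks. Every p-value therefore describes the spread among these samples alone, and that spread may be technical.

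NRF2, encoded by Nfe2l2, is a transcription factor that the adaptor KEAP1 holds in the cytoplasm and hands to a CUL3 ubiquitin ligase for breakdown. Oxidants and electrophiles modify KEAP1, NRF2 then escapes breakdown, and with a small MAF partner it binds antioxidant response elements in the promoters and enhancers of its target genes. In liver the targets make glutathione, reduce thioredoxin and quinones and break down heme. Catalase and the superoxide dismutases remove hydrogen peroxide and superoxide and are often read beside these targets, although other factors also control them.

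Promoter sequences were read for the listed genes to see which of them carry the letters of an antioxidant response element close to their start. The 250 bases before each annotated RefSeq transcript start (build GRCm38.p6) were searched on both strands for TGACNNNGC, a core of the element, and for TGANTCAGC. Both are forms of the site that NRF2 and a small MAF bind together. The letters TGACTCAGC would count for both. TGACNNNGC was in 10.2% of all 32851 windows in the table, TGANTCAGC in 1.02% and either of them in 10.7%. Windows were in the table for 8 of the 10 listed genes, and 5 of the 8 held a match, which were Nfe2l2, Srxn1, Gclm, Txnrd1 (in 1 of its 3 windows) and Sod1. The windows of Nqo1, Cat and Sod2 held neither motif. A match describes letters and not a bound site, and a window without one says nothing of elements farther away. The 4 windows printed run 5′ to 3′ on the strand of the gene, with the matched bases in capitals. The first pair belongs to genes that passed the test in HFD24 livers, Nfe2l2 (chr2:75704664-75704913, minus strand) and Nqo1 (chr8:107403206-107403455, minus strand). The second pair belongs to genes that did not, Srxn1 (chr2:152105274-152105523, plus strand) and Gclm (chr3:122245307-122245556, plus strand). The match began 240 bases before the start in Nfe2l2, 45 bases before it in Srxn1 and 134 bases before it in Gclm, where it lay on the opposite strand.
Nfe2l2: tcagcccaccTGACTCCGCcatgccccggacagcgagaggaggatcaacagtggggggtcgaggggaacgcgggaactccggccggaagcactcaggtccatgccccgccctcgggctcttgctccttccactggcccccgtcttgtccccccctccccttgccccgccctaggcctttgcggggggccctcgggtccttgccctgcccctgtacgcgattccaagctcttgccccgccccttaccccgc
Nqo1: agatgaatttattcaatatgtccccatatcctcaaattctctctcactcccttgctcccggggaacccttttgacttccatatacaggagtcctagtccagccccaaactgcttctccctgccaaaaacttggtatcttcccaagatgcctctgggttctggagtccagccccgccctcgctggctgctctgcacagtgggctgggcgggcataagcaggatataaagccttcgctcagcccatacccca
Srxn1: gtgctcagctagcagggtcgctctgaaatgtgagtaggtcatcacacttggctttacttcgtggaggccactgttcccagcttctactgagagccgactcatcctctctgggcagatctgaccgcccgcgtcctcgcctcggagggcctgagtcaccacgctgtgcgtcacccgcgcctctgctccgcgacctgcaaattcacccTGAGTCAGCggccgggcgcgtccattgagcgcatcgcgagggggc
Gclm: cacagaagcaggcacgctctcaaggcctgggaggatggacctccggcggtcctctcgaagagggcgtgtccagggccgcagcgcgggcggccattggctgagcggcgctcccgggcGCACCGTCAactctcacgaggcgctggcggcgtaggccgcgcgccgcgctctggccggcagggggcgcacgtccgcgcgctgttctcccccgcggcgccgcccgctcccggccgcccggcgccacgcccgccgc

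Array-wide facts bear on all results. The values are intensities normalized to a common distribution across the 12 arrays, and differences are on the log2(intensity + 1) scale with the standard error (SE) of the limma fit over all 19084 genes. A gene passed the test at a two-sided Benjamini-Hochberg adjusted p under 0.05. Array medians of the deposited intensity lay between 249 and 408. Each array's values were whole multiples of its own scaling step, which was 1.23 to 1.46 on ND arrays and 0.675 to 1.12 on the other 9 arrays, so the step moved with the contrast to ND. Of 12 hepatocyte markers 11 were measured, none was at 0 on any array, and their summed intensity was 2557590 to 2654200 in PTFC, 2419980 to 2501550 in HFD24, 2270400 to 2447960 in HFD16 and 2456950 to 2661550 in ND livers. Some arrays stood apart for the listed genes. ND replicate 3 was the highest ND array for 8 of 9 genes, against 39.3% of all genes, PTFC replicate 2 was the highest PTFC array for 6 of 9, against 32.6% of all genes, and HFD24 replicate 3 was the highest HFD24 array for 5 of 9, against 32.7% of all genes. Results that rest on these arrays are given with and without them.

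In HFD24 livers 3 of the 9 measured genes were higher than in ND livers and none was lower. They were Hmox1, Nqo1 and Nfe2l2, the gene of the regulator itself. The glutathione, thioredoxin and sulfiredoxin genes and the catalase gene did not pass the test. Neither did Sod2, the listed superoxide dismutase gene that had a probe. Over all genes 18.3% passed in this comparison, 10% as higher and 8.29% as lower. The arrays of HFD24 and ND did not overlap for 3 of the 9 genes, the same 3, and for 33.6% of all genes. The median difference of the 9 genes was 0.15, and that of all genes was -0.06.

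**Figure D1:**
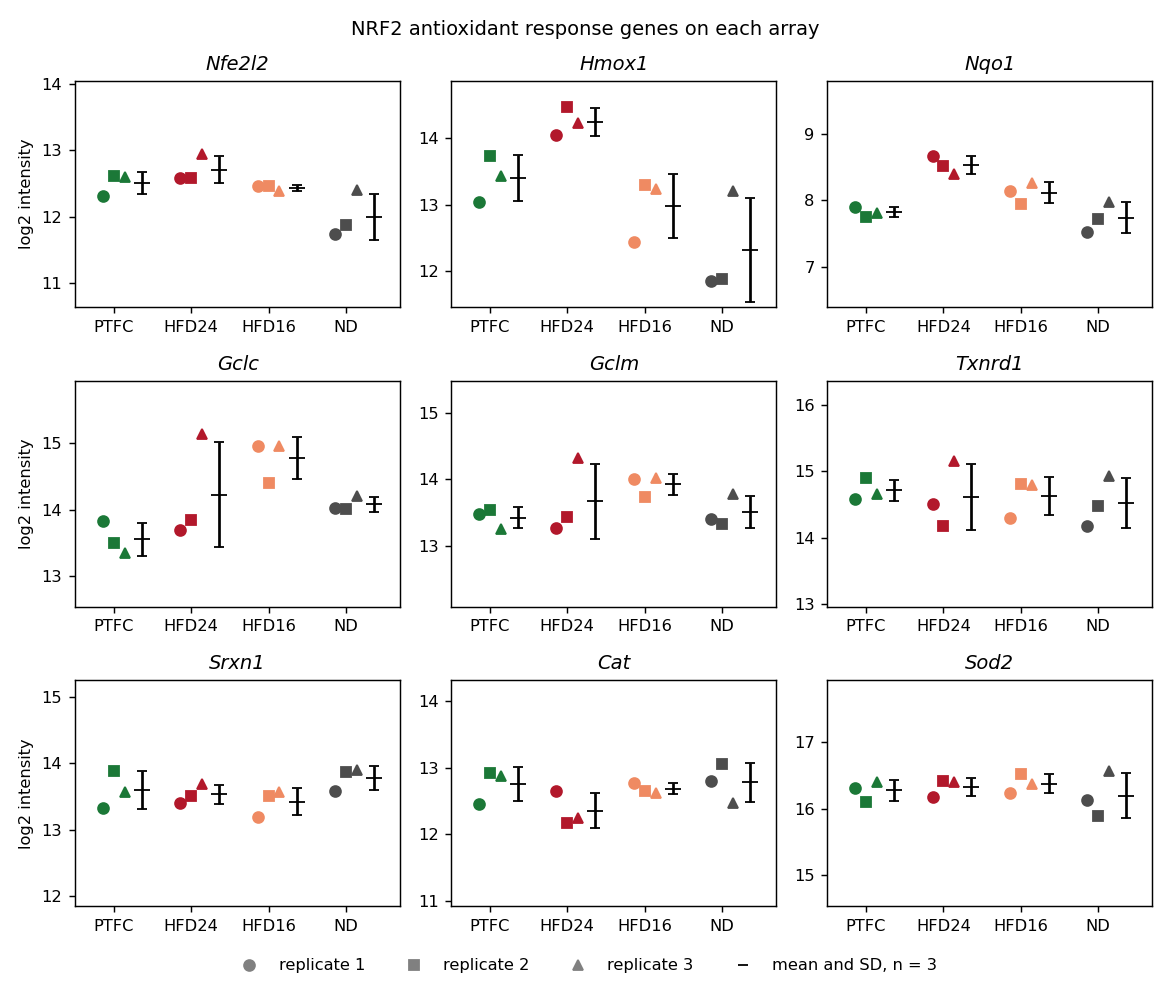
Each panel plots 1 gene's normalized log2 intensity (vertical axis, the same span in every panel) on the 12 arrays by group, with replicates as symbols and the group mean and SD (n = 3) as a black bar. Hmox1 and Nqo1 sit highest on the 3 HFD24 arrays, ND replicate 3 lies near the HFD16 arrays for Hmox1, and HFD24 replicate 3 lies far above the other HFD24 arrays for Gclc and Gclm.

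Hmox1 encodes heme oxygenase 1, which opens heme to biliverdin, carbon monoxide and iron. Its normalized intensity was 8460.2, 13634 and 11100.3 on the PTFC arrays, 16923, 22669 and 19262 on the HFD24 arrays, 5537, 10034 and 9654 on the HFD16 arrays, and 3709, 3788 and 9518 on the ND arrays. All HFD24 arrays lay above every array of the other groups, while ND replicate 3 stood apart from the other ND arrays and lay among the HFD16 and PTFC values. HFD24 livers were 3.81-fold above ND livers (log2 difference 1.93 ± 0.34 SE, limma adjusted p = 0.00244). Without ND replicate 3 the difference was 2.38 (limma adjusted p = 0.000381). The call was lost when the scaling step entered as a covariate, at 1.55 and a limma adjusted p of 0.0900, the highest of a range from 0.000381.

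Nqo1 encodes a quinone reductase that uses NADPH or NADH and is a much used readout of NRF2 activity. Its normalized intensity was 238, 214 and 223 on the PTFC arrays, 405, 365 and 335 on the HFD24 arrays, 281, 244 and 306 on the HFD16 arrays, and 182, 210.1 and 249.97 on the ND arrays. The HFD24 arrays again lay above all others, and the normalized PTFC values fell within the ND range. The values as deposited were 295.9, 239.7 and 277 in PTFC and 215.3, 243.9 and 224.9 in ND livers. On these, PTFC replicates 1 and 3 lay above every ND array. HFD24 livers were 1.73-fold above ND livers (log2 difference 0.79 ± 0.16 SE, limma adjusted p = 0.00540). The scaling step as a covariate left 0.85 with a limma adjusted p of 0.0708, and the range over all settings was 0.00243 to 0.0708.

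Nfe2l2 had a normalized intensity of 5099, 6231 and 6192 on the PTFC arrays, 6152, 6165 and 7902 on the HFD24 arrays, 5618, 5662 and 5334 on the HFD16 arrays, and 3406, 3739 and 5388 on the ND arrays. The lowest HFD24 array was above the highest ND array, which was again replicate 3, and the PTFC and HFD24 arrays overlapped. The difference between HFD24 and ND livers was 0.71 ± 0.19 SE (1.63-fold, limma adjusted p = 0.0205). This call rested on single arrays, with a limma adjusted p of 0.101 without ND replicate 1, 0.0806 without ND replicate 2 and 0.0740 without HFD24 replicate 3. It was also lost with only the groups compared in the fit (0.0632) and with the scaling step as a covariate (0.292), and its lowest value was 0.00298, without ND replicate 3.

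**Figure D2:**
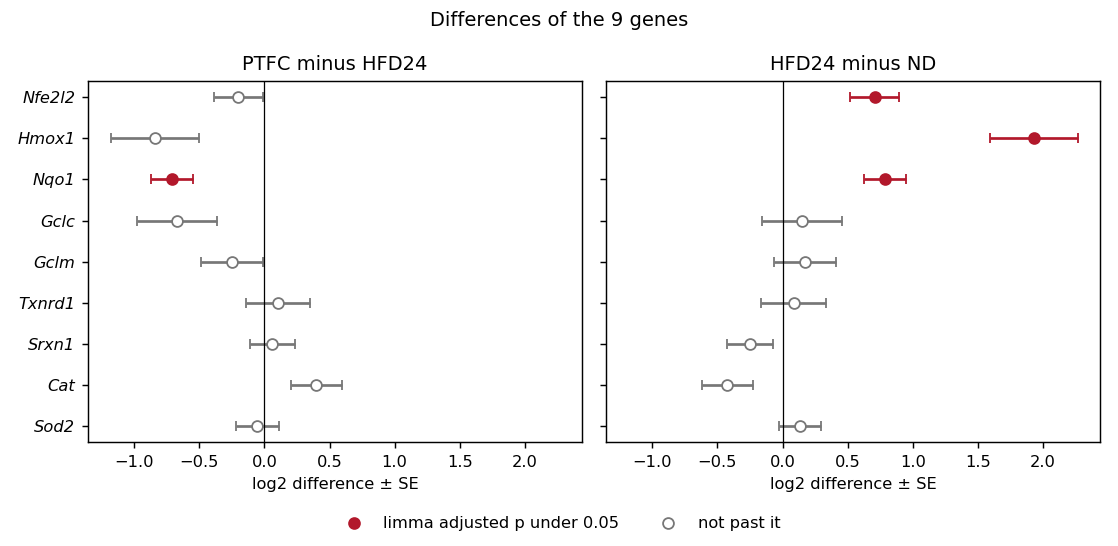
Points are log2 differences with SE bars for the 9 genes, with PTFC minus HFD24 on the left and HFD24 minus ND on the right, filled where the limma adjusted p was under 0.05. Hmox1 at 1.93, Nqo1 at 0.79 and Nfe2l2 at 0.71 are filled on the right, and Nqo1 at -0.71 is filled on the left.

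Gclc and Gclm encode the catalytic and modifier subunits of glutamate-cysteine ligase, the first step of glutathione synthesis. Gclc had 14466, 11548 and 10385 in PTFC, 13276, 14701 and 35972 in HFD24, 31929.6, 21669.9 and 31721 in HFD16 and 16575, 16482 and 18848 in ND livers. HFD24 replicate 3 alone reached the HFD16 values, the other HFD24 arrays were below every ND array, and the 3 PTFC arrays were below every ND array as well. Gclm had 11378, 11922 and 9714 in PTFC, 9797, 11049 and 20352 in HFD24, 16445, 13570.2 and 16602 in HFD16 and 10760.0, 10279.6 and 14016 in ND livers. Here too HFD24 replicate 3 was the highest of all arrays while of the other HFD24 arrays replicate 1 lay below every ND array and replicate 2 among them. HFD24 against ND gave 0.15 ± 0.31 SE for Gclc and 0.17 ± 0.24 SE for Gclm (limma adjusted p = 0.773 and 0.666). Without HFD24 replicate 3 both turned to the other side of 0, at -0.31 and -0.15.

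Txnrd1 encodes the cytosolic thioredoxin reductase and Srxn1 encodes sulfiredoxin, which restores over-oxidized peroxiredoxins. Txnrd1 had 24638, 30490.1 and 25984 in PTFC, 23306, 18551 and 36327 in HFD24, 20215, 28662 and 28406 in HFD16 and 18539, 22879 and 31067 in ND livers. Srxn1 had 10278, 15172 and 12219 in PTFC, 10838, 11674 and 13243 in HFD24, 9386, 11658 and 12190.2 in HFD16 and 12246, 14928 and 15354 in ND livers. Both genes overlapped between HFD24 and ND, with differences of 0.08 ± 0.25 SE for Txnrd1 and -0.25 ± 0.18 SE for Srxn1 (limma adjusted p = 0.845 and 0.354). The Txnrd1 difference was -0.18 without HFD24 replicate 3 and -0.09 without ND replicate 1.

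Cat encodes catalase, a peroxisomal enzyme that splits hydrogen peroxide. It had 5607, 7770.0 and 7476 in PTFC, 6435, 4599 and 4827 in HFD24, 7002, 6439 and 6305 in HFD16 and 7159, 8547 and 5666 in ND livers. HFD24 replicates 2 and 3 were the lowest of the 12 arrays, but replicate 1 lay inside the ND range. HFD24 against ND gave -0.43 ± 0.20 SE (limma adjusted p = 0.150). Without ND replicate 3, the lowest ND array for this gene, it was -0.58 and passed (limma adjusted p = 0.0472, the lowest of a range up to 0.504).

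Sod2 encodes the mitochondrial manganese superoxide dismutase and had 2 probes that differed. The brighter probe had 81777, 70434 and 87223 in PTFC, 74071, 87573 and 86592 in HFD24, 77168, 94694 and 85200.5 in HFD16 and 71567, 61188 and 97272 in ND livers, with every pair of groups overlapping. Its HFD24 difference from ND was 0.13 ± 0.16 SE (limma adjusted p = 0.611). The dimmer probe, at the 19.8 percentile of all probes by mean log2 intensity (5.82, under the 6.84 below which genes count among the dimmest 25%), had 49.7, 42.5 and 37 in PTFC, 81.1, 63.9 and 61.1 in HFD24, 69.2, 61.9 and 65.1 in HFD16 and 46.9, 47.7 and 55.1 in ND livers. In a fit of all probes it was lower in PTFC than in HFD24 livers by -0.66 (limma adjusted p = 0.0450) and did not pass in HFD24 against ND (0.45, limma adjusted p = 0.0994). On the values as deposited the PTFC difference of the dimmer probe was -0.15 (limma adjusted p = 0.629), and with median centring of the arrays it was -0.52 (0.0803).

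The question in PTFC livers was whether these genes differed from the same diet without the extract. Nqo1 alone among the 9 genes passed, as lower in PTFC than in HFD24 livers, and none was higher. Over all genes 5.98% passed, 3.04% as lower and 2.94% as higher. PTFC and HFD24 arrays did not overlap for 2 of the 9 genes, Hmox1 and Nqo1, against 31.1% of all genes. The median difference of the 9 genes was -0.20, and that of all genes was 0.01. This comparison and that of HFD24 with ND share the HFD24 arrays, so their values are not independent of each other.

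Nqo1 was 1.63-fold lower in PTFC than in HFD24 livers (log2 difference -0.71 ± 0.16 SE, limma adjusted p = 0.0295). The 3 PTFC arrays lay between 214 and 238 and the 3 HFD24 arrays between 335 and 405. The call depended on single arrays, with a limma adjusted p of 0.0978 without HFD24 replicate 1, 0.0700 without HFD24 replicate 2, 0.0527 without PTFC replicate 1, 0.0733 without PTFC replicate 2 and 0.131 without PTFC replicate 3. On the values as deposited the intensities were 296, 239.7 and 277 in PTFC and 309.8, 369 and 339 in HFD24 livers, still without overlap, with a difference of -0.33 and a limma adjusted p of 0.222. The replicate number as a block gave 0.0572, and the range over all settings was 0.0139 to 0.222.

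Hmox1 was lower on every PTFC array than on every HFD24 array, but the difference of -0.84 ± 0.34 SE did not pass (limma adjusted p = 0.146). It passed at 0.0462 without ND replicate 3 and at 0.0318 with only the groups compared in the fit, and the range over all settings reached 0.321. Without PTFC replicate 2, the highest PTFC array for this gene, it was -1.01 (0.146). Gclc differed by -0.67 ± 0.31 SE (limma adjusted p = 0.196), which shrank to -0.22 without HFD24 replicate 3. Cat differed by 0.40 ± 0.20 SE (0.237) and Nfe2l2 by -0.20 ± 0.19 SE (0.552). Gclm, Txnrd1, Srxn1 and the brighter Sod2 probe lay between -0.25 and 0.10, and Srxn1 turned to -0.08 without PTFC replicate 2.

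**Figure D3:**
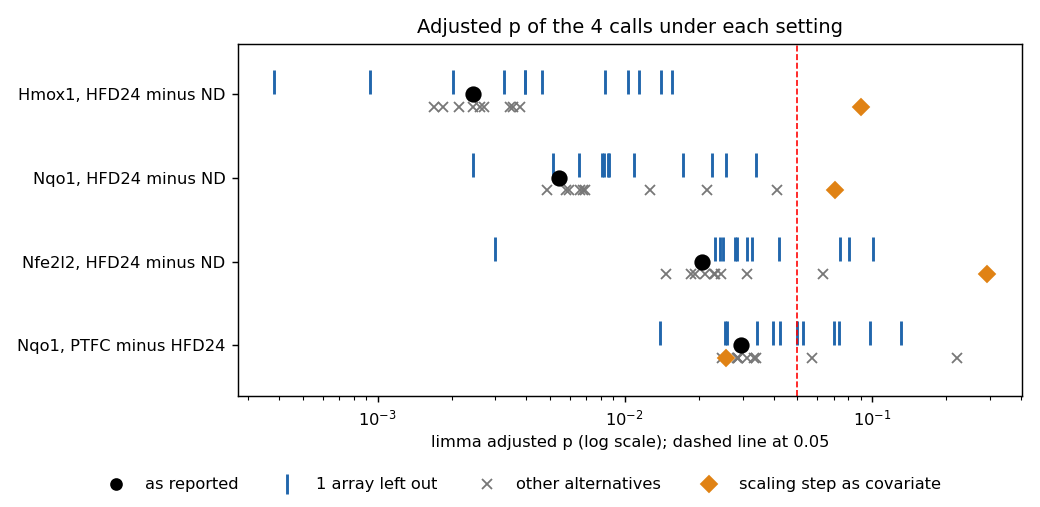
The limma adjusted p (log axis, dashed line at 0.05) of the 4 calls is shown as reported (black), with 1 array left out (blue), under the other alternatives (grey crosses) and with the scaling step as a covariate (orange). The 3 calls of HFD24 against ND cross the line with the scaling step as a covariate, at 0.0900, 0.0708 and 0.292, and Nqo1 in PTFC against HFD24 reaches 0.222 on the values as deposited.

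PTFC livers did not differ from ND livers in any of the 9 genes at the threshold, where 2.33% of all genes passed (1.04% as higher and 1.28% as lower) and 2 of the 9 had an unadjusted limma p under 0.05, beside 17.1% of all genes. Hmox1 stood at 1.09 ± 0.34 SE (limma adjusted p = 0.112) and Nfe2l2 at 0.51 ± 0.19 SE (0.177). Without ND replicate 3 both passed, Hmox1 at 1.53 (0.0133) and Nfe2l2 at 0.70 (0.0422), and over all settings their adjusted p reached 0.638 and 0.756. Without PTFC replicate 2 Hmox1 stood at 0.92 (0.282) and Nfe2l2 at 0.46 (0.369). Nqo1 stood at 0.08 ± 0.16 SE (0.876). Gclc was the only gene of the 9 without overlap between PTFC and ND, against 22.2% of all genes, at -0.52 ± 0.31 SE (0.427).

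After 16 weeks of the diet none of the 9 genes passed against ND, where 18.1% of all genes passed (10% as higher and 8.11% as lower) and 3 of the 9 had an unadjusted limma p under 0.05, beside 33.9% of all genes. The arrays of HFD16 and ND did not overlap for 2 of the 9, against 35.8% of all genes. Gclc was higher on every HFD16 array than on every ND array at 0.70 ± 0.31 SE (limma adjusted p = 0.127), and it passed without HFD24 replicate 3 (0.0220) and with only the groups compared in the fit (0.0440). Srxn1 was lower on every HFD16 array at -0.36 ± 0.18 SE (0.173). Without ND replicate 3, Hmox1 at 1.12 (0.0138), Nfe2l2 at 0.63 (0.0181) and Nqo1 at 0.50 (0.0407) passed, and with all arrays they stood at 0.67, 0.44 and 0.38 (0.186, 0.122 and 0.118). With the scaling step as a covariate, the adjusted p of the 3 genes was between 0.418 and 0.865.

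HFD24 and HFD16 livers differed in none of the 9 genes at the threshold, where 0.0367% of all genes passed (0.0157% as higher and 0.021% as lower) and 2 of the 9 had an unadjusted limma p under 0.05, beside 9.75% of all genes. Hmox1 at 1.26 ± 0.34 SE (limma adjusted p = 0.293), Nqo1 at 0.41 ± 0.16 SE (0.440) and Nfe2l2 at 0.27 ± 0.19 SE (0.639) were higher on every HFD24 array than on every HFD16 array, a separation seen for 16.4% of all genes. Gclc stood at -0.55 ± 0.31 SE (0.575) with HFD24 replicate 3 and at -1.003 (0.128) without it. Across all 4 groups, limma's F test passed Hmox1 (adjusted p = 0.00940) and Nqo1 (0.0132), where 21.4% of all genes passed, and missed Gclc (0.0543) and Nfe2l2 (0.0622).

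Macrophages that take up heme express Hmox1. Macrophage markers, among those of several cell types, were also higher in HFD24 than in ND livers, but not every array had both high or both low. Of 10 measured recruited macrophage markers 10 were higher in HFD24 than in ND livers, and of 12 Kupffer cell markers 11 were, beside 10% of all genes. Summed recruited macrophage markers were 10820.1 to 19484.9 in PTFC, 25891.3 to 29693.5 in HFD24, 6804.65 to 29684.5 in HFD16 and 4482.5 to 4931.11 in ND livers. Summed Kupffer cell markers were 105133 to 126142 in PTFC, 158532 to 255838 in HFD24, 63367.5 to 243528 in HFD16 and 26601.8 to 66502.4 in ND livers. Between PTFC and HFD24 livers 2 of 10 recruited macrophage markers were lower, Itgax at -1.31 and Cx3cr1 at -1.75, beside 3.04% of all genes. In the same comparison 0 of 12 Kupffer cell markers passed, beside 5.98% of all genes. No marker of either list was at 0 on any array. ND replicate 3, with 9518 for Hmox1, had summed recruited macrophage markers of 4919.64, inside the range of the other ND arrays, and summed Kupffer cell markers of 66502.4, above the 26601.8 and 57225.2 of the other ND arrays. HFD16 replicate 2 had summed recruited macrophage markers of 29684.5 and summed Kupffer cell markers of 243528, both inside the HFD24 ranges. Its Hmox1 was 10034, below the 16923 to 22669 of the HFD24 arrays. Markers of other cell types moved as well, in both directions. In HFD24 against ND livers 3 of 9 neutrophil markers were higher and 1 lower, and 1 of 6 B cell markers was higher and 2 lower. Lower without any higher were 2 of 6 cholangiocyte, 1 of 11 hepatocyte and 1 of 4 pancreas acinar cell markers, and 0 of 5 erythroid markers passed. These counts stand beside 10% of all genes as higher and 8.29% as lower. Of 10 stellate cell and matrix markers 8 were higher and 1 lower in HFD24 than in ND livers, beside 10% and 8.29% of all genes. In PTFC 3 stellate cell and matrix markers were lower than in HFD24 livers, beside 3.04% of all genes. Their sum was 106427 to 161668 in PTFC, 120396 to 167508 in HFD24, 95074.8 to 179167 in HFD16 and 48637.1 to 83477.9 in ND livers. Of 10 endothelial markers 7, and of 10 T and NK cell markers 3, were higher in HFD24 than in ND livers, beside 10% of all genes. Between PTFC and HFD24 livers 0 endothelial markers passed, beside 5.98% of all genes, and 1 T and NK cell marker was lower, beside 3.04%. The part of these cells in the levels of Hmox1 was not tested, and in whole liver fewer cells of a type and less RNA per cell cannot be told apart.

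**Figure D4:**
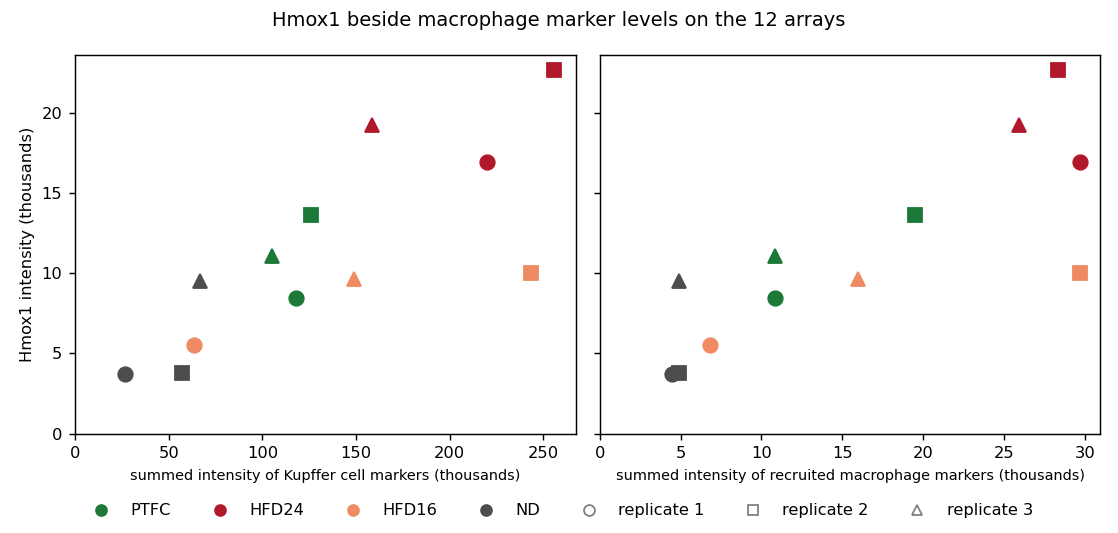
Each point is 1 of the 12 arrays, with the summed normalized intensity of Kupffer cell markers (left) or recruited macrophage markers (right) on the horizontal axis and the normalized intensity of Hmox1 on the vertical axis (linear axes from 0). The HFD24 arrays sit at the top right, and ND replicate 3 (grey triangle) has 9518 for Hmox1 at a Kupffer cell marker sum of 66502.4, the highest of the ND arrays, and a recruited macrophage marker sum of 4919.64, between the other ND arrays. HFD16 replicate 2 has marker sums of 243528 and 29684.5, inside the HFD24 ranges, with 10034 for Hmox1, below every HFD24 array.

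The profiles closest to Hmox1 and Nqo1 were sought among 13617 genes, by the root mean square difference between log2 values centred on each gene's mean over the 12 arrays. For Hmox1 they were Adm (0.26), Hpgds (0.32) and Emilin2 (0.32), beside a standard deviation of 0.81 for Hmox1 itself. Adm encodes the vasodilator peptide adrenomedullin and Hpgds a prostaglandin D synthase. For Nqo1 they were Dlgap4 (0.13), Pth1r (0.15) and Ocel1 (0.16), beside a standard deviation of 0.34.

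The wider antioxidant system was followed through 92 other genes in 7 lists, of which 83 were measured. In HFD24 against ND livers 17 were higher and 1 was lower, or 21.7% of the 83, beside 18.3% of all genes. In PTFC against HFD24 livers 3 were lower and none was higher, or 3.61%, beside 5.98%. PTFC against ND gave 1 higher, or 1.20%, beside 2.33% of all genes. HFD16 against ND gave 20 higher and 2 lower (26.5%, beside 18.1% of all genes). HFD24 against HFD16 gave none, where only 0.0367% of all genes passed. These lists were chosen with earlier results of these data known, so the shares only describe them and test no excess over all genes.

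Among the 11 measured genes that control NRF2, 2 were higher in HFD24 than in ND livers, beside 10% of all genes. None differed between PTFC and HFD24 livers, beside 5.98% of all genes. Maff, a small MAF partner of NRF2, stood at 1.26 ± 0.29 SE (limma adjusted p = 0.0102), with 608, 579 and 1096 in PTFC, 681, 648 and 1144 in HFD24, 1069, 649 and 954 in HFD16 and 299, 300.1 and 407 in ND livers. All arrays of the 3 high-fat groups were above every ND array. Trim21, a ubiquitin ligase, stood at 0.65 ± 0.19 SE (0.0334). Keap1 passed in none of the 5 comparisons and had 9383, 6896 and 9121 in HFD24 against 9759, 11023 and 9006 in ND livers (-0.24 ± 0.19 SE). The ligase scaffold Cul3 stood at -0.40 ± 0.19 SE (0.157).

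Glutathione use and recycling held 3 higher genes of 15 in HFD24 against ND livers, beside 10% of all genes. Gpx8, a peroxidase of the endoplasmic reticulum, stood at 2.33 ± 0.36 SE (limma adjusted p = 0.00138). Abcc1, which exports glutathione conjugates, stood at 1.73 ± 0.36 SE (0.00610), and the secreted peroxidase Gpx3 at 1.10 ± 0.30 SE (0.0223). Gpx8 had 189, 277 and 160.2 in PTFC, 449, 324 and 531 in HFD24, 249, 481 and 412 in HFD16 and 53.1, 73.7 and 149 in ND livers, so that PTFC arrays lay between HFD24 and ND arrays. On ND replicates 1 and 2 Gpx8 was dim, at log2 5.76 and 6.22, under the 6.84 below which genes count among the dimmest 25%. Its PTFC difference from HFD24 of -1.06 ± 0.36 SE did not pass (0.0909). None of 12 thioredoxin and peroxiredoxin genes passed in HFD24 against ND or in PTFC against HFD24, beside 18.3% and 5.98% of all genes. Of 5 genes of NADPH supply Pgd, an enzyme of the pentose phosphate pathway, passed at 0.99 ± 0.30 SE in HFD24 against ND (0.0390).

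Of 17 conjugation and detoxification enzymes 4 were higher in HFD24 than in ND livers, beside 10% of all genes. They were the glutathione transferases Gstm3 (2.23 ± 0.43 SE, limma adjusted p = 0.00386) and Gstm4 (1.26 ± 0.24 SE, 0.00377), the carbonyl reductase Cbr3 (1.92 ± 0.41 SE, 0.00677) and the epoxide hydrolase Ephx1 (0.70 ± 0.20 SE, 0.0306). Gstm3 had 14507, 5964 and 4229 in PTFC, 20971, 29888 and 33239.7 in HFD24, 12260.2, 21631 and 13207 in HFD16 and 10017, 5246 and 3825 in ND livers. Every HFD24 array lay above every PTFC and ND array, and the PTFC and ND arrays overlapped. Gstm3 was the only enzyme of the 17 that was lower in PTFC than in HFD24 livers, at -1.94 ± 0.43 SE (0.0266), beside 3.04% of all genes. Glutathione transferases of the mu class are close in sequence, and cross-hybridization between them was not tested.

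Of 13 heme and iron genes 2 were higher and 1 was lower in HFD24 than in ND livers, beside 10% and 8.29% of all genes. Blvrb, a biliverdin reductase, stood at 0.57 ± 0.13 SE (limma adjusted p = 0.0102), the heme scavenger Hpx at 0.60 ± 0.14 SE (0.0114), and Alas1, the first enzyme of heme synthesis, at -0.93 ± 0.28 SE (0.0331). Slc40a1, the iron exporter ferroportin, had 36470.3, 33419.8 and 25110.5 in PTFC, 50154, 70079 and 51574 in HFD24, 49262, 43566 and 53170.0 in HFD16 and 37202, 35885 and 50154 in ND livers. The PTFC arrays were below every HFD24 array, and Slc40a1 was lower by -0.86 ± 0.19 SE (0.0254).

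Of 10 superoxide sources and related enzymes 5 were higher in HFD24 than in ND livers, beside 10% of all genes. All 5 were parts of the phagocyte NADPH oxidase: Cyba (3.30 ± 0.44 SE, limma adjusted p = 0.000753), Cybb (2.98 ± 0.56 SE, 0.00351), Rac2 (2.45 ± 0.43 SE, 0.00235), Ncf4 (2.11 ± 0.41 SE, 0.00415) and Ncf1 (2.01 ± 0.33 SE, 0.00198). Cybb was dim on ND replicate 1, at log2 6.45, under the 6.84 below which genes count among the dimmest 25%. Cyba had 2149, 2144 and 1778 in PTFC, 5989, 5335 and 3757 in HFD24, 1024, 4766 and 3079 in HFD16 and 339, 740.5 and 494 in ND livers. Only HFD16 replicate 1 among the high-fat arrays came near the ND values, and that array also had the lowest recruited macrophage markers of its group, at 6804.65. Not every array had this match. PTFC replicates 1 and 2 had nearly the same Cyba, 2149 and 2144, at recruited macrophage marker sums of 10843.3 and 19484.9. Cyba was the 1 gene of the 83 that was higher in PTFC than in ND livers (2.01, 0.0344), beside 1.04% of all genes. Ncf1 was lower in PTFC than in HFD24 livers by -1.22 ± 0.33 SE (0.0495), and the other 4 lay between -1.15 and -1.60 without passing (0.0608 to 0.106). The part of the macrophage markers in these genes was not tested.

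**Figure D5:**
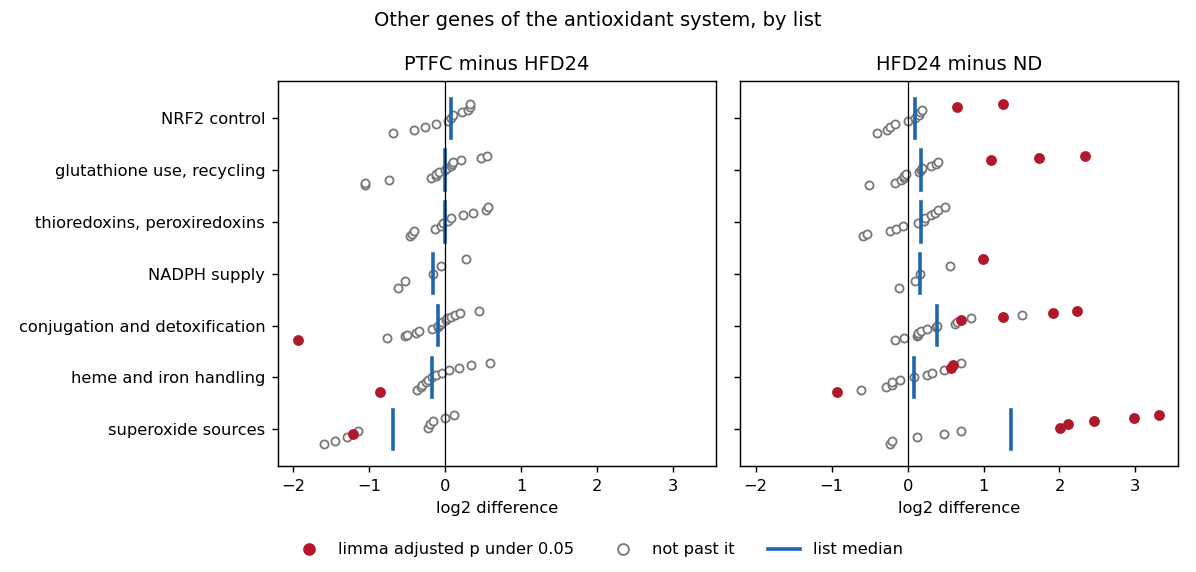
Points are log2 differences of the 83 genes by list, with PTFC minus HFD24 on the left and HFD24 minus ND on the right, filled where the limma adjusted p was under 0.05, and blue bars are list medians. Superoxide sources have the highest list median on the right, at 1.36, and the lowest on the left, at -0.69.

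The calls of these other genes were less firm than their count. Of the 17 genes named by rule and past the test in HFD24 against ND, 16 lost the call once the scaling step entered the fit (limma adjusted p 0.0518 to 0.497) and Cyba kept it (0.0404). The step was larger on every ND array than on every HFD24 array, so this fit cannot fully separate the step from the diet. Differences stayed near those reported for Maff (1.44), Gstm4 (1.41), Gstm3 (2.14), Ephx1 (0.73), Blvrb (0.56) and Alas1 (-1.05), and shrank for others, such as Abcc1 (0.80), Cbr3 (0.87), Pgd (0.50) and Trim21 (0.32). Without HFD24 replicate 1 the call was lost by Alas1, Gpx3, Pgd and Trim21 (0.0553 to 0.133), without HFD24 replicate 2 by Ephx1, Gpx3 and Pgd (0.0641 to 0.0661), and without HFD24 replicate 3 by Alas1, Ephx1, Pgd and Trim21 (0.0650 to 0.130). Without ND replicate 1 it was lost by Ephx1, Gpx3, Pgd and Trim21 (0.0720 to 0.159), without ND replicate 2 by Alas1, Gpx3, Pgd and Trim21 (0.0712 to 0.145), and without ND replicate 3 by Alas1 (0.0636). In PTFC against HFD24, Gstm3, Ncf1 and Slc40a1 all lost the call without HFD24 replicate 1 (0.0694 to 0.133), HFD24 replicate 2 (0.0690 to 0.129), PTFC replicate 2 (0.0531 to 0.0935) or PTFC replicate 3 (0.141 to 0.197). Gstm3 and Ncf1 lost it without HFD24 replicate 3 (0.0664 and 0.0657), and Ncf1 lost it without PTFC replicate 1 (0.0923). Leaving out single arrays of the other groups also ended the call of Ncf1, with 0.0535 without ND replicate 1, 0.0644 without ND replicate 2 and 0.0650 without HFD16 replicate 3. With the replicate block Slc40a1 (0.0508) and Ncf1 (0.0592) lost it, and Ncf1 also on the values as deposited (0.0644), with the mean of probes (0.0512) and without a trend (0.0561). In HFD24 against ND, Trim21 lost it with the block (0.0575), on the values as deposited (0.0530) and with only the groups compared in the fit (0.0534), Pgd with only the groups compared (0.0566) and Alas1 with median centring (0.0750).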

How the data were processed

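Per the labels' protocols, total RNA of each liver was extracted with Trizol, amplified and labelled with Cy5, and hybridised to 1-colour arrays. The authors deposited linear intensity values of 26423 probes per array. The background correction, array scaling and spot averaging are not given in the sources used here, and no scanner file was used. Of 317076 values 291 were below 0 and were set to 0. The platform's table gave 1 gene symbol to 21876 probes, and the brightest probe of each of 19084 genes was kept. Values were log2 transformed after adding a pseudocount of 1 and quantile normalized over all probes. Groups were compared in limma 3.58.1 (R 4.3.3; lmFit and eBayes with a trend), with all 12 arrays in 1 fit and Benjamini-Hochberg adjustment over all genes. The number of arrays limits the precision, and exact permutation tests of 3 arrays against 3 cannot go below 0.1, so none is used for a call.

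Genes are named by rule: all listed genes with every probe, Keap1, up to 4 genes of each pathway list with the smallest p in HFD24 against ND and in PTFC against HFD24, and the 3 closest profiles of each listed gene past the F test. Ncf4 and the macrophage markers Itgax and Cx3cr1 were named after their values were seen. The listed genes, pathway lists and marker lists were chosen with earlier results of these data known. The fit was tested on simulated arrays of HFD24 against ND, where 44% of 100 genes with a log2 change of 1 and 92% of 100 genes with a change of 2 were recovered, and 6.207% of the calls were false. These were the only changed genes among 19084, and their noise was independent and normal. In the data 18.3% of genes were called, so these shares do not give the sensitivity of the real comparison. The alternatives tried were median centring, values as deposited, a pseudocount of 32, the dimmest 25% of genes left out, all probes fitted, the mean of all probes, the replicate number as a block, no trend, only 2 groups in the fit, the scaling step as a covariate, and each array left out.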

Additional observations from a re-analysis of the deposited data

How the results depend on the processing

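Over 22 other settings, 12 of which left out 1 array each, 990 values of single genes were recomputed: 928 kept their direction and side of the threshold, 14 lost a call, 10 gained one and 38 turned direction. Of 45 differences, only 3 in HFD24 against ND and 1 in PTFC against HFD24 had a call to lose. In HFD24 against ND Nfe2l2 lost it in 5 of 22 settings, Hmox1 in 1 and Nqo1 in 1. In PTFC against HFD24 Nqo1 lost it in 7. Leaving out an array outside the groups compared cannot change the difference itself. With the scaling step as a covariate 0 of the 9 genes passed in HFD24 against ND, and with 1 array left out 2 to 4 did. In PTFC against HFD24 the count was 0 on the values as deposited, 2 with only the groups compared in the fit, and 0 to 2 with 1 array left out. With 1 array left out it was 0 to 2 in PTFC against ND and 0 to 3 in HFD16 against ND, where 1 gene passed with only the groups compared. The F test passed 1 gene on the values as deposited, 4 without the dimmest 25% of genes and 1 with the scaling step as a covariate.

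The replicate numbers did not pair the arrays: 4 of 18 same-numbered pairs had a correlation of deviations over 0.1 (from -0.29 to 0.17), and 2 of 12 arrays correlated best with their own number. With the replicate block 3 genes passed in HFD24 against ND and 0 in PTFC against HFD24, and the calls over all genes in the second fell to 336.

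Directions turned only for differences that did not pass. Txnrd1 turned with the scaling step as a covariate, at -0.46 in HFD24, -0.40 in PTFC and -0.52 in HFD16 against ND and 0.067 in HFD24 against HFD16. On the values as deposited Sod2 turned in HFD24 against ND (-0.0063) and PTFC against HFD24 (0.12), and Cat in PTFC against ND (0.012). With median centring Txnrd1 (-0.16) and Srxn1 (-0.24) turned in PTFC against HFD24, Sod2 in PTFC against ND (-0.052) and Cat in HFD16 against ND (0.12). The mean of both probes turned Sod2 in PTFC against ND (-0.068) and HFD24 against HFD16 (0.0053). With 1 array left out the ranges that crossed 0 in HFD24 against ND were -0.31 to 0.41 for Gclc, -0.15 to 0.37 for Gclm, -0.18 to 0.30 for Txnrd1 and -0.016 to 0.32 for Sod2. In PTFC against HFD24 they were -0.45 to 0.075 for Gclm, -0.11 to 0.37 for Txnrd1, -0.084 to 0.20 for Srxn1 and -0.13 to 0.034 for Sod2. In PTFC against ND they were -0.029 to 0.20 for Nqo1, -0.16 to 0.060 for Gclm, -0.19 to 0.12 for Cat and -0.070 to 0.26 for Sod2. In HFD16 against ND they were -0.068 to 0.30 for Txnrd1 and -0.25 to 0.046 for Cat, and in HFD24 against HFD16 -0.29 to 0.19 for Txnrd1, -0.0053 to 0.18 for Srxn1 and -0.12 to 0.028 for Sod2. The cause of these changes was not tested.

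Over all genes, calls numbered 3490 in HFD24 against ND, 1142 in PTFC against HFD24, 444 in PTFC against ND, 3462 in HFD16 against ND, 7 in HFD24 against HFD16 and 4077 in the F test. With 1 array left out they ranged from 1728 to 4942, 11 to 1963, 57 to 653, 1333 to 4510, 3 to 10 and 2214 to 5160 in that order, and the 11 came without PTFC replicate 3. They fell to 360 in HFD24 against ND, 25 in PTFC against ND, 99 in HFD16 against ND and 1666 in the F test with the scaling step as a covariate, and to 228 in PTFC against ND with median centring. HFD24 against HFD16 gave 0 to 12 calls over these settings. With only the groups compared, PTFC against HFD24 gave 1747. On the values as deposited the median of all genes moved to -0.23 in HFD24 against ND and 0.24 in PTFC against HFD24, and the share of calls that were higher moved to 41.4% and 90.4%, beside 54.7% and 49.2% as reported. It moved to 68.9% in PTFC against ND and 34.6% in HFD16 against ND, beside 44.8% and 55.3%. With median centring it was 37.2% in PTFC against HFD24 and 32.5% in PTFC against ND.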

Other observations

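Other genes of the 7 pathway lists, picked after their values were seen, passed in HFD16 against ND livers. Higher in HFD16 livers were Osgin1, an oxidative stress inducible growth inhibitor (log2 difference 1.77, limma adjusted p = 0.0164), the glutathione-degrading Chac1 (1.40, 0.0247), Mgst3, a microsomal glutathione transferase (1.12, 0.0354), the xanthine oxidoreductase Xdh (1.10, 0.0179), the aldehyde oxidase Aox1 (0.97, 0.0184), the biliverdin reductase Blvra (0.91, 0.0204), Nox4, a superoxide and peroxide source outside phagocytes (0.68, 0.0381), and Bach1, a repressor that competes with NRF2 for its elements (0.56, 0.0220). The glutathione reductase Gsr was higher by 0.41 (0.0351). Lower in HFD16 livers were the glutaredoxin Glrx (-0.91, 0.00908) and the thioredoxin reductase Txnrd3 (-0.64, 0.0360). Mice of the HFD16 group were younger than ND mice, and with the scaling step as a covariate 99 of all genes passed in this comparison, beside 18.1% of 19084 as reported.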
